A study of Homo sapiens with 6 samples.

Results

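The genes described here make new DNA or control its start. They are 46 of the 35009 genes in the deposited table, listed by name for their function, with earlier results of these data known: the MCM helicase subunits and their activators, origin licensing factors, replicative polymerases, the clamp and its loader, single-strand binding and ligation proteins, enzymes of nucleotide supply, maintenance factors of DNA methylation, E2F1 and E2F2, and the E cyclins. Every one of the 46 had a single row and passed the filter on low counts. THP-1, a line of human monocytic leukaemia, was the source of the macrophages, and every culture was exposed to oxidised low-density lipoprotein (ox-LDL). There are 3 libraries of MCT4-deficient cells, labelled siMCT4, and 3 of ox-LDL cells without that deficiency, labelled control. MCT4, the product of SLC16A3, exports lactate and protons. The labels leave out whether the controls carried a non-targeting siRNA, how the monocytes were differentiated and whether replicate libraries came from independent cultures. Loss of MCT4 and exposure to the siRNA cannot be told apart here, and p-values cover the spread between these samples alone, which may be technical.

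Before a cell can copy its genome, the origin recognition complex, CDC6 and CDT1 load pairs of MCM2 to MCM7 rings onto DNA during G1. At the start of S phase, CDC45 and the GINS complex join the ring to form the active helicase, primase and polymerase alpha lay down primers, and polymerases epsilon and delta extend them with the sliding clamp PCNA, which the RFC complex loads. Thymidylate synthase, thymidine kinase and ribonucleotide reductase supply the deoxynucleotides. E2F transcription factors switch on most of these genes when cyclins D and E have inactivated the RB proteins, and macrophages that have left the cell cycle express most of them at low levels.

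In siMCT4 macrophages all 4 genes of nucleotide supply, 5 of 6 subunits of the MCM helicase and 4 of 5 clamp loader subunits were lower, and CDT1 and TYMS fell furthest, while both E cyclins, UHRF1 and the polymerase delta subunit POLD3 were higher. Of the 46 genes, 22 were lower and 4 higher at an adjusted p under 0.05, and 20 did not pass. All adjusted p-values are from edgeR's quasi-likelihood test on the deposited counts, adjusted over 19944 genes by the Benjamini-Hochberg method, and every log2 change is siMCT4 over control. Of all tested genes 20.8% were lower and 20.6% higher (41.4% called in either direction), against 47.8% lower and 8.70% higher among the 46. Their median log2 change was -0.48, beside -0.01 over all tested genes. The CPM values (counts per 1000000 counts of the library, scaled by TMM, edgeR's default) of the groups did not overlap for 30 of the 46 genes, and for 55.0% of all tested genes. Values of a gene are given below in the order of libraries 1, 2 and 3. In these bulk libraries, fewer cells in S phase and less RNA of these genes in each cell cannot be told apart.

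Total counts ran from 61880619 to 69181938 per library. The targeted gene SLC16A3 had 10.8, 11.05 and 13.4 CPM in siMCT4 libraries and 115, 101 and 108 CPM in controls (log2 change -3.20, SE 0.102, adjusted p = 1.12e-06). Macrophage markers (9 genes) summed to 4849.8 to 5075 CPM in siMCT4 and 6124 to 6253 CPM in control libraries, with 6 of 9 lower. The falls were -1.99 for CD14, -1.66 for FCGR1A, -0.98 for CD36, -0.87 for CSF1R, -0.47 for LYZ and -0.17 for ITGAM (log2 change, adjusted p = 1.24e-06 to 0.0309), while CD68, ITGAX and SPI1 did not pass (0.07, 0.11 and -0.02). Granule and progenitor markers of undifferentiated monocytic cells (6 genes) summed to 65.6 to 139 CPM in siMCT4 and 222 to 231 CPM in controls, with 3 of 6 lower. These were AZU1, CTSG and MYB, while MPO, PRTN3 and ELANE did not pass. PRTN3 had 2.54, 1.78 and 33.8 CPM in siMCT4 libraries 1, 2 and 3 and 43.1, 42.7 and 41.1 CPM in controls. ELANE had 1.14, 0.892 and 10.04 CPM in siMCT4 libraries and 14.3, 10.75 and 8.82 CPM in controls, so library 3 lay among the controls for ELANE. The proliferation markers MKI67 and TOP2A together stood at 12.0 to 30.4 CPM in siMCT4 and 209 to 229 CPM in controls. Of 4 fibroblast markers, summing to 6.25 to 32.5 CPM in siMCT4 and 4.43 to 6.40 CPM in controls, COL1A2 stood at 29.6, 25.6 and 0 CPM in siMCT4 libraries and was at 0 in all controls. Epithelial markers (4 genes) summed to 0.240 to 4.92 CPM in siMCT4 and 0.141 to 0.285 CPM in controls, and 2 lymphoid markers to 2.68 to 3.01 CPM in siMCT4 and 0.845 to 1.08 CPM in controls. KRT8 of the epithelial list was called higher (log2 change 2.37, adjusted p = 0.0453). It had 1.91, 0.806 and 0.183 CPM in siMCT4 libraries and 0.194, 0.141 and 0.222 CPM in controls, so siMCT4 library 3 lay among the controls. KRT18 of that list, not tested, had 2.69, 1.61 and 0 CPM in siMCT4 libraries and 0, 0 and 0.0633 CPM in controls. CD79A of the lymphoid list rose (log2 change 2.90, adjusted p = 0.000143). The 2 endothelial markers summed to 337 to 347 CPM in siMCT4 and 528 to 542 CPM in controls, nearly all of it PECAM1, which monocytic cells also express. The siMCT4 libraries also differed in GC-rich genes: for 2605 tested genes with a GC content of 60% or more, siMCT4 libraries 1, 2 and 3 had median log2 ratios of -0.56, -0.60 and -0.18 to the controls. The part of these markers in the results below was not tested. With siMCT4 library 3 alone against the controls, a fit that takes the lone library to vary like the controls, the 46 genes had a median change of -0.69. All genes of that fit had a median change of -0.02 (both log2).

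**Figure D1:**
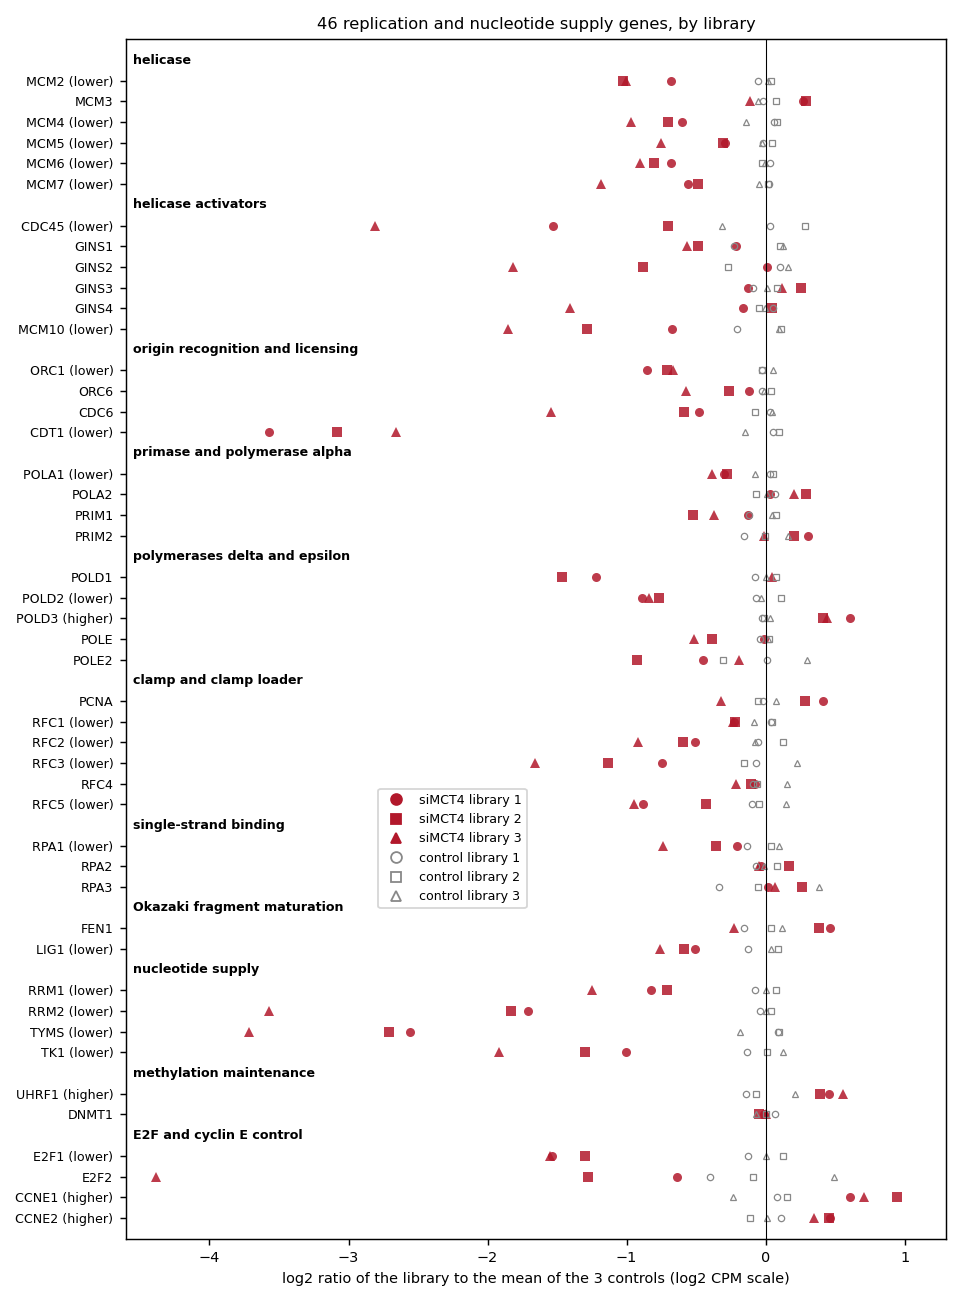
Log2 ratio of each library to the mean of the 3 controls (x axis, log2 CPM scale) for the 46 genes, grouped by role; filled red symbols are siMCT4 libraries 1, 2 and 3, open grey symbols control libraries 1, 2 and 3, and genes past an adjusted p of 0.05 are marked lower or higher. Most red symbols lie left of 0, CDT1 and TYMS farthest among the called genes, and siMCT4 library 3 (triangle) is the lowest of its group in 32 of 46 genes; the far left E2F2 point is a library with 0 counts, placed by the prior count of 2.

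The siMCT4 libraries were less alike than the controls in these genes. The median range of a gene over the 3 siMCT4 libraries was 0.41 on the log2 scale, against 0.195 over the 3 controls, and it was wider in siMCT4 for 36 of 46 genes. Library 3 had the lowest value of the siMCT4 group for 32 genes, and its median ratio to the control mean was -0.70, with -0.49 in library 2 and -0.30 in library 1. For 13 genes it lay at least 0.5 below the mean of the other siMCT4 libraries and below each of them. It lay that far above them for 2, CDT1 and POLD1, which are the most GC-rich of the 46 genes (GC 64.9% and 65.0%). In all, 4 of the 46 genes had a GC content of 60% or more. The others of these, TK1 (62.8%) and E2F1 (62.5%), had library 3 lower, at -0.76 and -0.14 from the mean of libraries 1 and 2 (log2). A part of GC content in this pattern was not tested.

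Promoter sequence of the genes the results turn on is shown because many of these genes are known E2F targets, and the sequences let called and uncalled genes be compared. RefSeq windows from 250 bases before to 50 after a gene's start (GRCh38.p14) were found for 39 of the 46 genes; MCM4, MCM5, GINS4, POLD3, RPA2, RPA3 and CCNE2 had no entry. An E2F-type site was searched on both strands as TTTCCCGC, TTTCGCGC, TTTGCCGC or TTTGGCGC, of which TTTGGCGC and TTTCGCGC overlap where they meet on opposite strands. At least 1 of these was present in 21 of 39 windows (53.8%), against 3.33% of 27305 windows of all genes. It was present in 9 of 20 lower genes, 11 of 17 uncalled genes and 1 of 2 higher genes. CCAAT was present in 22 of 39 windows (56.4%, against 35.7% of all) and the CHR element TTTGAA, a motif of mitotic genes, in 1 of 39 (2.56%, against 15.4% of all). The 120 bases before the start are printed below for 4 genes that fell and hold a match (CDT1, TYMS, E2F1, MCM6), 1 that rose and holds a match (UHRF1), 1 uncalled with a match (PCNA), and 1 lower and 1 higher without (RRM2, CCNE1). Capitals mark E2F-type matches on either strand.
CDT1 (chr16:88803669-88803788, + strand): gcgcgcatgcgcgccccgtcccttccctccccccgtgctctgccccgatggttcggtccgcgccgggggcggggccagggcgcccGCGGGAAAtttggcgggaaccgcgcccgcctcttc
TYMS (chr18:657533-657652, + strand): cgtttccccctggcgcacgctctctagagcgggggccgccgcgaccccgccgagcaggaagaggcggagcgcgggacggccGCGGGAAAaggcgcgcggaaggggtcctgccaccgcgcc
E2F1 (chr20:33686386-33686505, - strand): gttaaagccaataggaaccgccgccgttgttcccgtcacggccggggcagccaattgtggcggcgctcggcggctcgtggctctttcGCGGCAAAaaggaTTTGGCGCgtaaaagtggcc
MCM6 (chr2:135876444-135876563, - strand): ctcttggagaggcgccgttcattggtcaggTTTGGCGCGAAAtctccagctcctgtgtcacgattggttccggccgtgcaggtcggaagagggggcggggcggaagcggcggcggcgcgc
UHRF1 (chr19:4909381-4909500, + strand): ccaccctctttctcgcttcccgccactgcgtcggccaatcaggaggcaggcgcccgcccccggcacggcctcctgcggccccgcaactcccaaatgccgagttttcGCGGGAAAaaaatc
PCNA (chr20:5126623-5126742, - strand): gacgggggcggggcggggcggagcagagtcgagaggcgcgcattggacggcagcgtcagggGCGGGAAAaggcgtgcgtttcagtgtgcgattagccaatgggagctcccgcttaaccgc
RRM2 (chr2:10122619-10122738, + strand): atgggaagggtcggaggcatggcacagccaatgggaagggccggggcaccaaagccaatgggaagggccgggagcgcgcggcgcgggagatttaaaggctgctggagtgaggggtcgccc
CCNE1 (chr19:29811871-29811990, + strand): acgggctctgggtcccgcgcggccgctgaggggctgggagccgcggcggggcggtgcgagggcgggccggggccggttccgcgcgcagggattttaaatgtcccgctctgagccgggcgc
In MCM6 the 12 capitals are 2 overlapping matches, TTTGGCGC on the strand shown and TTTCGCGC on the other. CDT1 and TYMS, the genes that fell furthest, and UHRF1, which rose, each hold the letters GCGGGAAA, beginning 35, 39 and 14 bases before the RefSeq start, and PCNA, which was not called, holds them 59 bases before it. The RefSeq start can differ from the deposited gene position. The stretches of UHRF1 and RRM2 lie inside the spans given for these genes below.

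All 4 genes of nucleotide supply fell, with a median log2 change of -1.77. TYMS, which encodes thymidylate synthase, the enzyme that makes dTMP from dUMP (chromosome 18, 657653 to 673578, + strand, GRCh38 as given in the submitters' processing notes, as are all positions), had 1.42, 1.28 and 0.620 CPM in siMCT4 libraries and 9.07, 9.12 and 7.49 CPM in controls. The groups did not overlap (log2 change -2.95, SE 0.308, adjusted p = 0.000263). RRM2, the small subunit of ribonucleotide reductase that is made in S phase (chromosome 2, 10120698 to 10211725, + strand), had 4.89, 4.50 and 1.33 CPM in siMCT4 libraries and 15.6, 16.5 and 16.1 CPM in controls. It fell in all siMCT4 libraries, and furthest in library 3 (log2 change -2.17, SE 0.425, adjusted p = 0.00527); the change was -1.75 (adjusted p = 7.80e-06) without that library. RRM1, the large subunit, had 19.7, 21.2 and 14.6 CPM in siMCT4 libraries and 32.9, 36.6 and 34.9 CPM in controls (log2 change -0.91, SE 0.138, adjusted p = 0.00156). TK1, the thymidine salvage kinase of S phase, had 2.94, 2.39 and 1.55 CPM in siMCT4 libraries and 5.40, 5.96 and 6.48 CPM in controls (log2 change -1.37, SE 0.244, adjusted p = 0.00336). TK1 has a GC content of 62.8%, and with a correction for GC content its change was -0.85 (adjusted p = 0.0573), while that of TYMS was -3.00 (adjusted p = 9.60e-05) and that of RRM2 -2.25 (adjusted p = 0.00243).

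**Figure D2:**
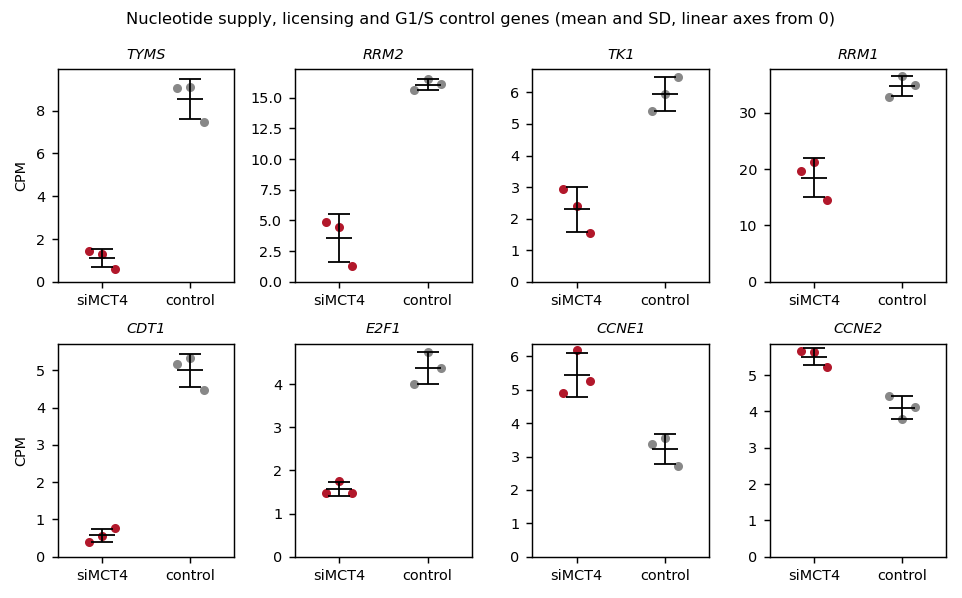
CPM (y axis, linear from 0, a scale per panel) of 8 genes in the 3 siMCT4 (left) and 3 control libraries (right); points are libraries, the bar is the mean with its SD. TYMS, RRM2, TK1, RRM1, CDT1 and E2F1 are lower in every siMCT4 library than in any control, and CCNE1 and CCNE2 are higher.

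Of the 4 origin recognition and licensing genes 2 fell and 2 did not pass. The siMCT4 values lay below all control values for each of the 4, in a table where the groups did not overlap for 55.0% of all tested genes. CDT1, the licensing factor that brings the MCM rings to origins (chromosome 16, 88803789 to 88809258, + strand), had 0.391, 0.561 and 0.761 CPM in siMCT4 libraries and 5.18, 5.32 and 4.48 CPM in controls, the largest fall of the 46 genes (log2 change -3.12, SE 0.264, adjusted p = 9.25e-05). It was -2.50 (adjusted p = 4.92e-05) after GC correction and -2.69 (adjusted p = 0.000373) in library 3 alone. ORC1, the subunit of the origin recognition complex whose level varies over the cycle, had 2.68, 2.96 and 3.06 CPM in siMCT4 libraries and 4.77, 4.79 and 5.05 CPM in controls (log2 change -0.75, SE 0.140, adjusted p = 0.00436); in library 3 alone it was -0.65 (adjusted p = 0.0523). CDC6, the ATPase that loads MCM rings with CDT1, had 4.04, 3.75 and 1.92 CPM in siMCT4 libraries and 5.77, 5.34 and 5.83 CPM in controls (log2 change -0.80, adjusted p = 0.0506), just outside the threshold. It passed in 7 of 18 alternative settings, among them DESeq2 with -0.79 (adjusted p = 0.0152) and the fit without siMCT4 library 3 with -0.51 (adjusted p = 0.0252). ORC6, the smallest origin subunit, had 3.68, 3.32 and 2.68 CPM in siMCT4 libraries and 3.92, 4.10 and 3.96 CPM in controls (log2 change -0.31, adjusted p = 0.184).

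The hexameric helicase fell in 5 of its 6 subunits and MCM3 did not pass. Per gene length, in FPKM (fragments per kilobase of gene and per 1000000 fragments, as the authors deposited them), MCM2 stood at 2.19 ± 0.307 FPKM in siMCT4 and 3.78 ± 0.140 FPKM in controls, MCM4 at 1.32 ± 0.174 FPKM in siMCT4 and 2.08 ± 0.195 FPKM in controls, MCM5 at 2.54 ± 0.440 FPKM in siMCT4 and 3.18 ± 0.127 FPKM in controls, MCM6 at 6.63 ± 0.527 FPKM in siMCT4 and 10.7 ± 0.196 FPKM in controls and MCM7 at 2.69 ± 0.664 FPKM in siMCT4 and 4.10 ± 0.150 FPKM in controls (mean ± SD, n = 3 libraries each). MCM3 stood at 9.70 ± 1.47 FPKM in siMCT4 and 8.05 ± 0.464 FPKM in controls. MCM2, the largest change of the 6, had 12.4, 9.77 and 9.91 CPM in siMCT4 libraries and 19.2, 20.4 and 20.2 CPM in controls (log2 change -0.90, SE 0.113, adjusted p = 0.000657). MCM6 changed by -0.79 (SE 0.0700, adjusted p = 0.000113), MCM4 by -0.76 (adjusted p = 0.00176), MCM7 by -0.71 (adjusted p = 0.0141) and MCM5 by -0.44 (adjusted p = 0.0278). The call of MCM5 was lost in 7 of 18 alternatives. These were the fits without any 1 control library (adjusted p = 0.0702 to 0.0945), the fit with no filter on low counts and each limma fit on FPKM or TPM. That of MCM7 was lost without control library 1 or 2 (adjusted p = 0.0517 and 0.0512). In CPM, MCM3 (chromosome 6, 52264014 to 52284881, - strand) had 39.5, 40.1 and 30.3 CPM in siMCT4 libraries and 32.3, 34.5 and 31.5 CPM in controls, so that siMCT4 libraries 1 and 2 lay above all controls and library 3 below all of them (log2 change 0.16, adjusted p = 0.295). Without library 3 its change was 0.31 (adjusted p = 0.00339) and with library 3 alone -0.09 (adjusted p = 0.458). MCM3 made up 38.1, 40.1 and 37.7% of the summed FPKM of the 6 subunits in siMCT4 libraries and 24.9, 26.1 and 24.8% in controls. MCM6 made up 26.1, 24.9 and 28.8% in siMCT4 and 34.1, 32.3 and 34.1% in controls, where it led. By deposited FPKM, whose levels between genes were not verified, the most abundant subunit thus differed between the groups.

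**Figure D3:**
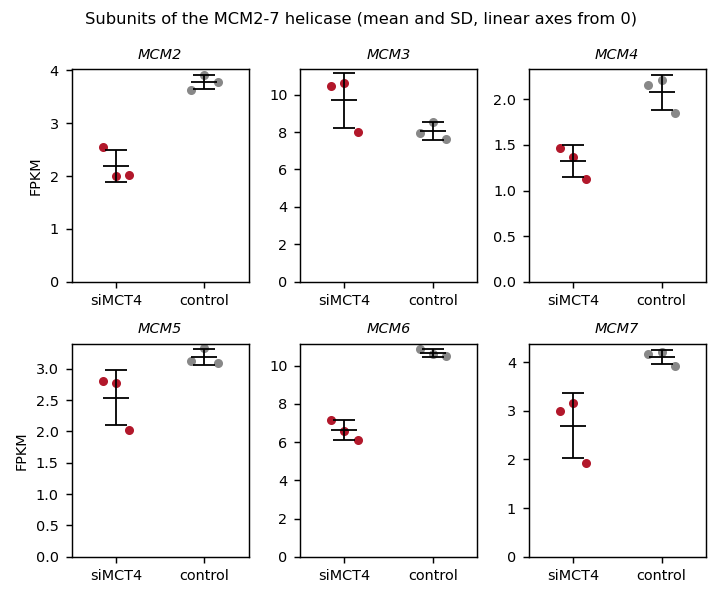
FPKM (y axis, linear from 0, a scale per panel) of the 6 MCM2 to MCM7 genes in the 3 siMCT4 (left) and 3 control libraries (right), with mean and SD. The siMCT4 points lie below all controls for MCM2, MCM4, MCM5, MCM6 and MCM7, and for MCM3 they average 9.70 FPKM in siMCT4 against 8.05 FPKM in controls.

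Among the 6 genes that turn the loaded ring into a moving helicase, 2 fell and 4 did not pass. CDC45, the helicase cofactor, had 1.14, 2.04 and 0.451 CPM in siMCT4 libraries and 3.42, 4.08 and 2.69 CPM in controls (log2 change -1.49, SE 0.484, adjusted p = 0.0429). It was lower in every siMCT4 library but spread widely there, with -1.07 (adjusted p = 0.0220) without library 3 and -2.89 in library 3 alone. The call was lost in 5 of 18 alternatives: without any 1 control library (adjusted p = 0.0759 to 0.130), without siMCT4 library 1 (adjusted p = 0.122) and with no filter on low counts (adjusted p = 0.0848). MCM10, which links the helicase to polymerase alpha, changed by -1.21 (SE 0.307, adjusted p = 0.0161), and the call was lost without control library 2 or 3 or siMCT4 library 2 (adjusted p = 0.0565, 0.0561 and 0.0580). The GINS subunits, which form a tetramer, did not pass with all libraries. GINS1 had 4.04, 3.34 and 3.16 CPM in siMCT4 libraries and 3.998, 5.02 and 5.10 CPM in controls (log2 change -0.42, adjusted p = 0.0911). GINS2, the least abundant of the 4, had 0.877, 0.460 and 0.226 CPM in siMCT4 libraries and 0.940, 0.720 and 0.982 CPM in controls (log2 change -0.76, adjusted p = 0.244). GINS3 had 6.47, 8.44 and 7.66 CPM in siMCT4 libraries and 6.64, 7.48 and 7.11 CPM in controls (log2 change 0.09, adjusted p = 0.647). The groups overlap for all of these. GINS4 had 3.62, 4.17 and 1.51 CPM in siMCT4 libraries and 4.19, 3.91 and 4.04 CPM in controls (log2 change -0.39, adjusted p = 0.412), with library 3 apart from the rest. In library 3 alone GINS2 was -1.94 (adjusted p = 0.0214) and GINS4 -1.40 (adjusted p = 0.00391).

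Of the 9 polymerase and primase genes 2 fell, 1 rose and 6 did not pass, a share of falls near the 20.8% of all tested genes. In the polymerase alpha and primase complex, POLA1, the catalytic subunit, changed by -0.32 (SE 0.108, adjusted p = 0.0474), a call that 16 of 18 alternatives lost, including each fit without 1 library (adjusted p = 0.0675 to 0.146). POLA2, its accessory subunit, had 9.30, 11.2 and 10.5 CPM in siMCT4 libraries and 9.53, 8.67 and 9.15 CPM in controls (log2 change 0.18, adjusted p = 0.242). The primase subunit PRIM1 had 6.81, 5.15 and 5.74 CPM in siMCT4 libraries and 6.85, 7.81 and 7.66 CPM in controls (log2 change -0.33, adjusted p = 0.106). PRIM2, the other primase subunit, had 12.9, 12.00 and 10.4 CPM in siMCT4 libraries and 9.34, 10.4 and 11.7 CPM in controls (log2 change 0.17, adjusted p = 0.343). The groups overlap for POLA2 and PRIM2, and the PRIM1 values of siMCT4 lie just under those of the controls. Polymerase delta split between its subunits. POLD2 fell: it had 24.6, 26.7 and 25.5 CPM in siMCT4 libraries and 43.4, 49.1 and 44.4 CPM in controls (log2 change -0.83, SE 0.0708, adjusted p = 9.46e-05). POLD3, an accessory subunit (chromosome 11, 74493851 to 74669117, + strand), rose: it had 27.5, 23.98 and 24.5 CPM in siMCT4 libraries and 17.7, 17.9 and 18.4 CPM in controls (log2 change 0.49, SE 0.0777, adjusted p = 0.00195). Both held in all 18 alternatives. The catalytic subunit POLD1 (chromosome 19, 50384204 to 50418014, + strand) had 18.04, 15.3 and 43.5 CPM in siMCT4 libraries and 39.98, 44.3 and 42.2 CPM in controls (log2 change -0.72, adjusted p = 0.156), so siMCT4 library 3 sits among the controls while libraries 1 and 2 lie far below. Without library 3 its change was -1.32 (adjusted p = 1.17e-05), with library 3 alone 0.06 (adjusted p = 0.609). The GC-corrected change was -0.17 (adjusted p = 0.536). Of polymerase epsilon, the catalytic POLE had 14.7, 11.3 and 10.4 CPM in siMCT4 libraries and 14.4, 15.1 and 14.9 CPM in controls (log2 change -0.29, adjusted p = 0.138); without siMCT4 library 1 it passed as lower, at -0.43 (adjusted p = 0.0225). Its second subunit POLE2 had 1.03, 0.734 and 1.24 CPM in siMCT4 libraries and 1.43, 1.14 and 1.76 CPM in controls (log2 change -0.53, adjusted p = 0.177), and the groups overlap.

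Of the clamp and its 5 loader subunits, 4 subunits fell and none rose. PCNA, the sliding clamp, had 13.7, 12.5 and 8.26 CPM in siMCT4 libraries and 10.2, 9.95 and 10.9 CPM in controls (log2 change 0.16, adjusted p = 0.547). Libraries 1 and 2 lie above all controls and library 3 below them, and without library 3 PCNA passed as higher, with a log2 change of 0.37 (adjusted p = 0.0200), with -0.30 (adjusted p = 0.205) in library 3 alone. The 4 that fell belong to the loader RFC. RFC3, a small subunit, had 3.65, 2.78 and 1.92 CPM in siMCT4 libraries and 5.85, 5.49 and 7.17 CPM in controls (log2 change -1.15, SE 0.251, adjusted p = 0.00857). RFC5 changed by -0.74 (adjusted p = 0.0117, and 0.0506 without siMCT4 library 1), RFC2 by -0.67 (adjusted p = 0.00469) and RFC1, the large subunit, by -0.23 (adjusted p = 0.0107). The call of RFC1 was lost in 7 of 18 alternatives. Among them were the fits without control library 1 or 2 or siMCT4 library 1 (adjusted p = 0.0655, 0.0701 and 0.0566) and each limma fit on FPKM or TPM. RFC4 had 9.16, 8.98 and 8.31 CPM in siMCT4 libraries and 9.06, 9.23 and 10.8 CPM in controls (log2 change -0.14, adjusted p = 0.384), and the groups overlap.

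Of the proteins that hold and join new strands, 2 of 5 fell. RPA1, the large subunit of the single-strand binding complex, had 22.1, 19.9 and 15.2 CPM in siMCT4 libraries and 23.2, 26.2 and 27.3 CPM in controls (log2 change -0.42, SE 0.141, adjusted p = 0.0482). Its call was lost in 10 of 18 alternatives, among them those without any 1 control library (adjusted p = 0.0679 to 0.143) or without siMCT4 library 2 (adjusted p = 0.106). RLE scaling and each limma fit on FPKM or TPM also lost it. RPA2 had 14.7, 16.9 and 14.6 CPM in siMCT4 libraries and 14.4, 15.9 and 14.9 CPM in controls (log2 change 0.03, adjusted p = 0.827). RPA3 had 3.41, 4.04 and 3.54 CPM in siMCT4 libraries and 2.67, 3.25 and 4.42 CPM in controls (log2 change 0.09, adjusted p = 0.775), and neither of these smaller subunits separates the groups. LIG1, the ligase that seals Okazaki fragments, had 17.8, 16.9 and 14.99 CPM in siMCT4 libraries and 23.2, 27.03 and 26.2 CPM in controls (log2 change -0.62, SE 0.0962, adjusted p = 0.00178). FEN1, the nuclease that trims their flaps, had 10.2, 9.67 and 6.32 CPM in siMCT4 libraries and 6.65, 7.61 and 8.03 CPM in controls (log2 change 0.23, adjusted p = 0.382). As with MCM3 and PCNA, libraries 1 and 2 lie above all controls and library 3 below them, and without library 3 FEN1 passed as higher, with a log2 change of 0.45 (adjusted p = 0.0250). FEN1 lies within the span of FADS2 on the same strand, a gene with a mean of 6278 counts, so its counts may hold FADS2 reads.

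Of the 2 factors that copy DNA methylation onto the new strand, 1 rose and 1 did not pass. UHRF1, which recognises hemimethylated sites (chromosome 19, 4903080 to 4962154, + strand), rose and had 17.9, 17.05 and 19.1 CPM in siMCT4 libraries and 11.8, 12.4 and 15.04 CPM in controls (log2 change 0.46, SE 0.114, adjusted p = 0.0145). All siMCT4 values lie above all controls, and library 3 is the highest, but the call was lost without control library 2 (adjusted p = 0.0531). DNMT1, the maintenance methyltransferase and the most abundant of the 46 genes in CPM, had 84.1, 81.7 and 84.7 CPM in siMCT4 libraries and 88.7, 84.8 and 80.6 CPM in controls (log2 change -0.02, adjusted p = 0.779), with the groups overlapping.

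The regulators of S-phase entry went in opposite directions. CCNE1, a cyclin that with CDK2 drives the G1 to S transition (chromosome 19, 29811991 to 29824312, + strand), rose and had 4.90, 6.19 and 5.25 CPM in siMCT4 libraries and 3.39, 3.57 and 2.72 CPM in controls (log2 change 0.75, SE 0.172, adjusted p = 0.0106). CCNE2 rose as well and had 5.67, 5.62 and 5.23 CPM in siMCT4 libraries and 4.42, 3.79 and 4.12 CPM in controls (log2 change 0.42, SE 0.135, adjusted p = 0.0395). Both sets of siMCT4 values lie above all controls. The CCNE2 call was lost in 10 of 18 alternatives. Among them were each fit without 1 library other than siMCT4 library 3 (adjusted p = 0.0502 to 0.110) and the GC correction (adjusted p = 0.0922). That of CCNE1 was lost in 1 of 18, the fit with library 3 alone. E2F1, an activator of S-phase genes that is itself an E2F target, had 1.49, 1.75 and 1.47 CPM in siMCT4 libraries and 3.998, 4.76 and 4.37 CPM in controls (log2 change -1.48, SE 0.167, adjusted p = 0.000377), and -1.01 (adjusted p = 0.00542) after GC correction. E2F2, another activator, was near the detection limit with 24, 16 and 0 counts in siMCT4 and 30, 36 and 54 counts in controls, that is 0.376, 0.230 and 0 CPM in siMCT4 libraries and 0.448, 0.563 and 0.855 CPM in controls (log2 change -1.63, adjusted p = 0.208).

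Other genes of the replication pathway, all tested, made up 6 lists of 88 genes, of which 30 were lower (34.1%, against 20.8% of all tested genes), 15 higher (17.0%, against 20.6%) and 43 did not pass, with a median log2 change of 0.01. Among 14 other origin and licensing genes, 3 fell and 3 rose, 21.4% each way and near the shares of all tested genes. MCM8, a helicase paralogue of DNA repair, and TICRR, which helps load CDC45, changed by -1.58 and -1.55 (adjusted p = 0.000214 and 0.00270). GMNN, the inhibitor of CDT1, rose and had 4.20, 3.67 and 3.44 CPM in siMCT4 libraries and 2.12, 2.47 and 1.79 CPM in controls (log2 change 0.82, SE 0.185, adjusted p = 0.00967). DBF4, the activator of the CDC7 kinase, rose by 0.38 (adjusted p = 0.00295) and ORC4 by 0.43 (adjusted p = 0.00174). CDC7 (-0.16, adjusted p = 0.551), ORC2 (0.08, adjusted p = 0.549), ORC3 (-0.03, adjusted p = 0.785) and ORC5 (-0.03, adjusted p = 0.828) did not pass.

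Of 18 fork and checkpoint genes 7 fell (38.9%, against 20.8% of all tested genes) and 1 rose (5.56%, against 20.6%). The median log2 change of this list was 0.02. ATAD5, which unloads PCNA, and DSCC1, of an alternative clamp loader, changed by -1.06 and -1.96 (adjusted p = 0.000279 and 0.000406), and the checkpoint kinase ATR rose by 0.53 (adjusted p = 0.000444). Of 10 other polymerase and flap genes 4 fell, among them RNASEH2A and RNASEH2B, subunits of the nuclease that removes ribonucleotides from DNA (-1.30 and -0.47, adjusted p = 0.00551 and 0.00408), and the translesion polymerase POLK rose by 0.41 (adjusted p = 0.00132). Of 7 chromatin assembly genes 3 fell and 2 rose (42.9% and 28.6%), with a median log2 change of 0.05. Those that fell include the remodeller HELLS (-1.62, adjusted p = 0.000287) and the histone chaperone ASF1B (-2.04, adjusted p = 0.00664). The chaperones NASP (0.62, adjusted p = 0.000473) and ASF1A (0.48, adjusted p = 0.0286) rose, so the ASF1 paralogues moved apart.

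Of 19 other nucleotide genes 8 fell (42.1%, against 20.8% of all tested genes) and 3 rose (15.8%, against 20.6%). The median log2 change of this list was -0.01. Deoxycytidine kinase (DCK) and dCMP deaminase (DCTD), both sources of pyrimidine deoxynucleotides, changed by -0.94 and -0.53 (adjusted p = 0.000625 and 0.000149). SAMHD1, the hydrolase that degrades deoxynucleotides in non-dividing myeloid cells, rose and had 281, 282 and 285 CPM in siMCT4 libraries and 217, 227 and 219 CPM in controls (log2 change 0.35, SE 0.0390, adjusted p = 0.000342). ATIC, of purine synthesis, rose by 0.44 (adjusted p = 0.000929). RRM2B, the reductase subunit used outside S phase, had 72.5, 74.6 and 91.3 CPM in siMCT4 libraries and 70.4, 67.2 and 69.1 CPM in controls (log2 change 0.21, adjusted p = 0.108). The siMCT4 values of RRM2B lie above all controls, library 3 furthest.

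Among 20 other E2F, RB and S-phase kinase genes 5 fell and 5 rose, 25% each way beside 20.8% and 20.6% of all tested genes. The fall was steepest for MYBL2, a cell-cycle transcription factor, and for CCNA2, the cyclin of S phase progression. MYBL2 stood at 2.92 ± 0.234 CPM in siMCT4 and 20.2 ± 1.40 CPM in controls (log2 change -2.79, adjusted p = 3.52e-06). CCNA2 stood at 3.47 ± 0.363 CPM in siMCT4 and 19.4 ± 1.31 CPM in controls (log2 change -2.49, adjusted p = 7.01e-06). The phosphatase CDC25A, which activates CDK2 with cyclin E, rose (3.83 ± 0.252 CPM in siMCT4 and 1.83 ± 0.313 CPM in controls; log2 change 1.07, adjusted p = 0.00304), as did SKP2, a subunit of the ubiquitin ligase for p27 and CDT1 (24.2 ± 1.38 CPM in siMCT4 and 13.5 ± 1.31 CPM in controls; log2 change 0.84, adjusted p = 0.000367; mean ± SD, n = 3 libraries per group). E2F4, a repressor-type E2F, rose by 0.25 (adjusted p = 0.0165).

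**Figure D4:**
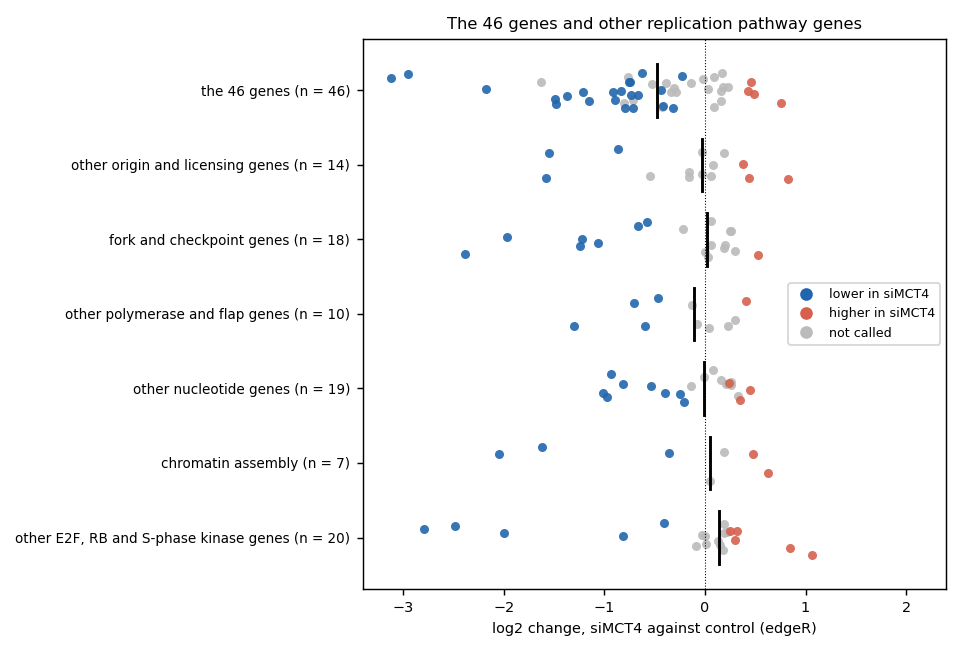
Log2 change of siMCT4 against control (x axis, edgeR) for the 46 genes and for 6 lists of other replication pathway genes; each point is a gene (blue lower, red higher, grey not past an adjusted p of 0.05) and the black bar is the list's median. The median is -0.48 for the 46 genes and lies between -0.11 and 0.14 in the other lists.

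By level, the 46 genes were low to moderate in these cells. Their mean FPKM ran from 0.0353 (E2F2) to 9.70 (MCM3) in siMCT4, with a median of 1.44, and from 0.1001 (E2F2) to 10.7 (MCM6) in controls, with a median of 2.04. Across the 46 genes the log2 change had a Pearson's r of -0.31 and a Spearman's rho of -0.25 with GC content, as a description over genes that share their libraries. Some values are less certain because of overlapping genes, since the strand setting of the counting is not given. On the opposite strand, TYMS overlaps ENOSF1 (mean of 2436 counts) over 3261 bases and RPA3 overlaps UMAD1 (762 counts) over 77897 bases. CCNE2 overlaps INTS8 (3550.5 counts) over 1977 bases and NDUFAF6 (551 counts) over 1146 bases, also on the opposite strand. Per library, TYMS itself had 44 to 608 counts and CCNE2 had 242 to 391. DNMT1 overlaps S1PR2 on its own strand over 9854 bases. PRIM1 overlaps NACA, with a mean of 19944 counts, on its own strand over 333 bases. RFC4 overlaps EIF4A2, with a mean of 23346 counts, on the opposite strand over 18 bases.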

How the data were processed

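RNA-seq libraries of ox-LDL-treated THP-1-derived macrophages were analysed, 3 labelled siMCT4 and 3 labelled control. Per the submitters' processing notes, reads were processed with cutadapt 1.9 and HISAT2 2.2.1 on GRCh38; for the counter, its annotation and its strand setting, nothing is stated in the labels. The authors deposited raw read counts and FPKM per gene in a table of 35009 genes. Per library, 58.7% to 60.9% of the counts between 2 and 41 were even, a pattern that counting each mate of a pair would give. The ratio of count to deposited FPKM of a gene was constant over libraries, up to 1 factor per library. This held within 0.05 on the log2 scale for 95.4% of 16922 genes with at least 10 counts in every library, and for 43 of 45 such genes of the 46. Gene lengths did not enter this check, so FPKM levels between genes were not verified.

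Genes with too few counts were removed with edgeR's filterByExpr (minimum count 10, minimum total 15), leaving 19944. Counts were tested with edgeR 4.0.16 (R 4.3.3; TMM scaling, quasi-likelihood test, two-sided, Benjamini-Hochberg adjustment over all tested genes, threshold 0.05). The common biological coefficient of variation was 0.219. CPM is TMM-scaled; log2 values plotted per library used a prior count of 2. FPKM was used as deposited, without TMM scaling, for levels between genes, for the MCM subunits by group and for ratios of paired genes. The limma alternatives also used FPKM or TPM made from it. Alternatives were RLE scaling, DESeq2 1.42.0, other filters, limma 3.58.1 on log2(FPKM + pseudocount) or log2(TPM + 1), a GC offset, a replicate block, leaving out each library, siMCT4 library 3 alone, and halved counts. The procedure was also run on simulated data. No result of that run is given here, so no error rate for these libraries is drawn from it. 

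The 46 genes and the lists were chosen with earlier results of these data known. Values per library were given for the gene with the largest change of each role, for every gene not called or called against most of its role, and for others where it helped. In the other lists, the 2 called genes with the smallest adjusted p in each direction were named, plus 10 genes named by function, of which SAMHD1, DBF4 and ORC4 come under both. Sequences are from RefSeq promoter windows (GRCh38.p14); GC content came from GENCODE v29 transcripts.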

Additional observations from a re-analysis of the deposited data

How the results depend on the processing

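Of the 26 called genes, 13 (12 lower, 1 higher) kept their call in all 18 alternatives, and none of the 26 changed direction in any. The number lower was 15 to 23 and the number higher 2 to 7 when each library was left out in turn: 2 without control library 2 and 7 without siMCT4 library 3, where MCM3, PCNA and FEN1 also passed as higher. With siMCT4 library 3 alone, the median log2 change of the 46 genes was -0.69. The median was -0.16 with limma on log2(FPKM + 1) and -0.22 with limma on log2(TPM + 1), a scale on which the median of all genes moved to 0.14, and -0.51 to -0.35 without single libraries. All-gene calls were 6569 to 9708 without single libraries. The labels do not say whether replicate numbers pair the samples. Same-numbered deviations had correlations of -0.0616, -0.00295 and -0.0547, which cannot tell whether those samples were handled together. With the replicate block 20 genes were lower and 3 higher, and 6921 of all genes were called.

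Of the uncalled genes, 8 turned direction, among them POLD1 (-0.72 as reported). DNMT1 (-0.02 as reported) was 0.0053 with a mean count of at least 100, 0.0741 and 0.0872 with limma on log2(FPKM + 1) and log2(FPKM + 0.1), 0.17 on log2(TPM + 1), 0.0359 with the GC offset, 0.0372 with the GC offset and replicate block, 0.0190 with library 3 alone, and -0.0572 to 0.0272 without single libraries. RPA2 was -0.0180 with the GC offset, -0.0190 with the GC offset and block, -0.0299 with library 3 alone, and -0.0196 to 0.0932 without single libraries. RPA3 was -0.0506 to 0.31 without single libraries. With library 3 alone FEN1 was -0.21, MCM3 -0.0937, PCNA -0.30 and POLD1 0.0634, and RFC4 was 0.0602 on log2(TPM + 1). The cause was not tested. Depth limits E2F2, with 0 to 24 counts in siMCT4 and 30 to 54 in controls.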

Other observations

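Some paired levels within pathways, in deposited FPKM, differed by library as follows. The ratio of RRM1 to RRM2 was 8.82, 10.4 and 24.9 in siMCT4 libraries 1, 2 and 3, against 4.59, 4.81 and 4.73 in controls. CDT1 over its inhibitor GMNN was 0.0830, 0.136 and 0.193 in siMCT4 and 2.21, 1.96 and 2.28 in controls. POLD3 over POLD2 was 1.64, 1.31 and 1.41 in siMCT4 and 0.597, 0.533 and 0.606 in controls. These pairs were chosen after their values were seen and were not tested.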
